A study of Mus musculus and Mus spretus with 72 samples.

Results

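The cytochrome P450 genes were read out as every array probe with 1 gene symbol that starts with Cyp and a digit, leaving out Cyp11a1, Cyp17a1, Cyp51 and pseudogenes. This gave 55 probes of 50 genes, among 22089 probes in all, of which 15801 have 1 gene symbol (14386 symbols). The study set RNA of single mice, whose origin the labels give only as species or sub-species, against RNA pooled from 9 C57BL6 laboratory mice (same tissue), on 72 arrays with 2 channels. All animals were males of about 12 weeks. Brain, liver/kidney and testis were measured, and each tissue had 6 arrays of dom (Mus musculus domesticus), 6 of mus (M. m. musculus), 6 of ssp (M. musculus of a sub-species that the labels leave unnamed), 3 of cas (M. m. castaneus) and 3 of spretus (M. spretus, another species). The question is how expression divergence compares between early (sub-species) and late (M. spretus) stages of separation. The labels do not say how liver and kidney were combined. One array, 08 of mus in brain, is mus by its title and domesticus by its channel label.

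Cytochrome P450 enzymes are haem proteins that insert 1 oxygen atom into a substrate, using electrons passed on by the reductase Por or, in mitochondria, by Fdxr and Fdx1. Families Cyp1 to Cyp3 mostly oxidise foreign compounds in liver, Cyp4 enzymes hydroxylate fatty acids, and others make or break down bile acids, steroid hormones, vitamin D and retinoic acid. Liver and kidney are their main sites, many arose by recent duplication and lie in clusters, and in mouse liver several are expressed mainly in 1 sex under control of growth hormone.

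A value is the deposited log ratio of a mouse to the pool, taken as log2 and centred on the median of each array. A value of 0 is thus the ratio of the array's median probe, and above or below the pool means relative to it. Before centring, the median over the spots of an array lay between -0.045 and 0.055. A positive value is likely higher in the mouse than in the pool. That direction is not stated in the sources used here, and if it is inverted, all signs turn together. Between 42825 and 44832 spots of an array carried a value. The duplicate spots of a P450 probe followed each other over the liver/kidney arrays with a median r of 0.613, against 0.454 over all probes. In brain these were 0.536 and 0.434, and in testis the members were lower, at 0.452 against 0.537. The spots without a value fell into 3 patterns over the arrays, called array sets here because the sources do not say what they stand for. In liver/kidney, set 1 held all 18 dom, mus and ssp arrays, set 2 the 3 cas arrays with spretus 01 and 03, and set 3 only spretus 02. Cas and spretus therefore differ there from the other groups in array set as well as in descent, which cannot be told apart outside set 2. In brain, set 1 held all 6 dom, 4 mus and 3 ssp arrays. Set 2 held 2 mus, 3 ssp, 2 cas and all 3 spretus arrays, and set 3 only cas 03. In testis, set 1 held 5 dom, 4 mus and all 6 ssp arrays. Set 2 held 1 dom, 2 mus, all 3 cas and all 3 spretus arrays. Group and set are thus partly confounded in these tissues too. A ratio to a pool gives no absolute level, so tissue identity could not be checked on marker levels, and values are not compared between probes. In these bulk samples fewer cells of a type and less RNA per cell cannot be told apart either. P450 genes of 1 cluster are near-copies of each other, the probe sequences were not used here, and a probe's signal may hold RNA of a relative. How well each probe matches the sequence of M. spretus was not tested either. A poorer match in that species cannot be told apart from less RNA.

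In liver/kidney, M. spretus differed from the 4 house mouse groups at 5 of 53 tested P450 probes. Cyp2b13 and Cyp39a1 were higher and Cyp27a1, Cyp2j5 and Cyp20a1 were lower (limma, adjusted p under 0.05 over all 20652 probes). Over all probes 7.49% passed, so the members' share of 9.43% lies near that background. Split by direction, 2 members were higher (3.03% of all probes) and 3 lower (4.46%). The members' differences were wider, with a median size of 0.17 on the log2 scale against 0.11 over all probes, while their median standard error was 0.12. They went both ways. Leaving out spretus 01 gave 8 calls, and leaving out dom 06, dom 10 or mus 05 gave 3.

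The difference was widest at Cyp2b13, which encodes a Cyp2b enzyme known in mice as expressed mainly in the liver of females. Its probe NM_007813 stood at 1.20, 1.09 and 0.85 in spretus 01, 02 and 03, a mean of 1.04 ± 0.18 (SD, n = 3). The house mice ranged from -0.06 to 0.25 in dom (median 0.13), -0.17 to 0.04 in mus (median -0.10) and -0.22 to 0.23 in ssp (median -0.00), and the cas mice stood at -0.02, 0.14 and -0.40. All 3 spretus males lay above all 21 house mice, as the spretus arrays lay on 1 side of all others at 1.54% of probes, while the house mouse groups overlapped each other. The difference was 1.06 ± 0.09 on the log2 scale (2.09-fold, adjusted p = 1.04e-07 by limma). It was 1.12 ± 0.20 between spretus and cas within array set 2, where 2 arrays against 3 gave an adjusted p of 0.307. With the array set as a random block it was 1.06 ± 0.13 (adjusted p = 0.000123). That fit cannot separate set from descent, because dom, mus and ssp lay only in set 1 and cas only in set 2. The second Cyp2b13 probe, M60359, did not show the difference. That probe stood at 0.20, 0.12 and -0.07 in the spretus mice and differed by 0.05 ± 0.09 (adjusted p = 0.811). Over the 24 liver/kidney arrays the probes had an r of 0.11, so the result rests on 1 probe. Duplicate spots there had an r of 0.84 at NM_007813 and only 0.27 at M60359. The second probe is therefore a weak check on the first.

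Cyp2b13 has close neighbours, and 250 bases before the start of Cyp2b13, Cyp2b9, Cyp2b10 and, from another subfamily, Cyp2d26 are shown because these genes differ in what the liver/kidney arrays show. The windows come from RefSeq on GRCm38.p6, which is not known to be the build of the array. They lie at chr7:26061245-26061494, chr7:26173159-26173408 and chr7:25897408-25897657 on the plus strand and at chr15:82794246-82794495 on the minus strand. Each is printed 5′ to 3′ and ends at the base before the annotated start. Capitals mark matches on either strand to AGGTCA (the nuclear receptor half-site), GTTAAT (an HNF1 half-site), TATAAA or TTCNNNGAA (a STAT5 site).

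Cyp2b13: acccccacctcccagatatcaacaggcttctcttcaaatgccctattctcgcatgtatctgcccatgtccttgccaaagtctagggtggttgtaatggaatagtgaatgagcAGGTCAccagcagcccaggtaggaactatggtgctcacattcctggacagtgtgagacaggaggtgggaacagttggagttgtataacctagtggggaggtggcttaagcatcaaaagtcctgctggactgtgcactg

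Cyp2b9: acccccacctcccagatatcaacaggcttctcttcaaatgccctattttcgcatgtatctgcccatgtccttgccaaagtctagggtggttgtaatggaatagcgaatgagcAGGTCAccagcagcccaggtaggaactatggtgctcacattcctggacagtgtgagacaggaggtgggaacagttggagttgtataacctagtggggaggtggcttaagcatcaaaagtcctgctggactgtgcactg

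Cyp2b10: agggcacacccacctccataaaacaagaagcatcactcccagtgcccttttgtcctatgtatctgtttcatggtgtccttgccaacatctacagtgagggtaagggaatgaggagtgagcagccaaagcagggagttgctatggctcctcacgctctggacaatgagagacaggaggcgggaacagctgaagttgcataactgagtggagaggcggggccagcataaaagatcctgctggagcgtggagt

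Cyp2d26: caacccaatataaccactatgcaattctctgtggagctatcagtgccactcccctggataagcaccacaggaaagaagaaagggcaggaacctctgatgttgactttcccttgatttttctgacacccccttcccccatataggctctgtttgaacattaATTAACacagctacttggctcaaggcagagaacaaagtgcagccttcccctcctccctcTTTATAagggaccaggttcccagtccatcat

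The Cyp2b13 and Cyp2b9 windows were identical at 248 of 250 positions (99.2%). Counted from 1 at the 5′ end, with the Cyp2b13 base first, the differences are C48T and T104C. Cyp2b10 matched Cyp2b13 at 71.0% of 262 aligned columns. AGGTCA stood 138 to 133 bases before the start of both Cyp2b13 and Cyp2b9, and none of the searched letters was found in the Cyp2b10 window. In Cyp2d26, GTTAAT stood 90 to 85 bases and TATAAA 31 to 26 bases before the start, both on the opposite strand. A window of this length holds AGGTCA in 14.0% of 32851 RefSeq starts and in 9 of the 39 P450 genes with an entry (23.1%), GTTAAT in 6.43% and in 5, TATAAA in 12.4% and in 16 (41.0%), and TTCNNNGAA in 7.02% and in 2. These matches are a description of letters.

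Cyp2b9, whose enzyme is likewise known as female-predominant in mouse liver, was not called. Its values were -0.09, 0.65 and 0.01 in spretus 01, 02 and 03. The house mice ranged from -0.24 to 0.08 in dom, -0.22 to -0.01 in mus, -0.35 to -0.04 in ssp and -0.11 to -0.04 in cas, so only spretus 02 lay above all of them. The difference was 0.31 ± 0.10 (adjusted p = 0.0673), close to the 0.30 ± 0.12 in brain and 0.27 ± 0.09 in testis, neither of which was called. Cyp2b10, the Cyp2b gene best known as a target of the receptor CAR, stood at -0.20, 0.39 and -0.17. The genes from Cyp2b10 to Cyp2f2 form the largest of 8 sets of neighbouring P450 genes on the array, with 9 members on chromosome 7. Their probes had a median spretus difference of 0.01 in liver/kidney, so the size of the Cyp2b13 difference was not shared along the cluster.

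**Figure D1:**
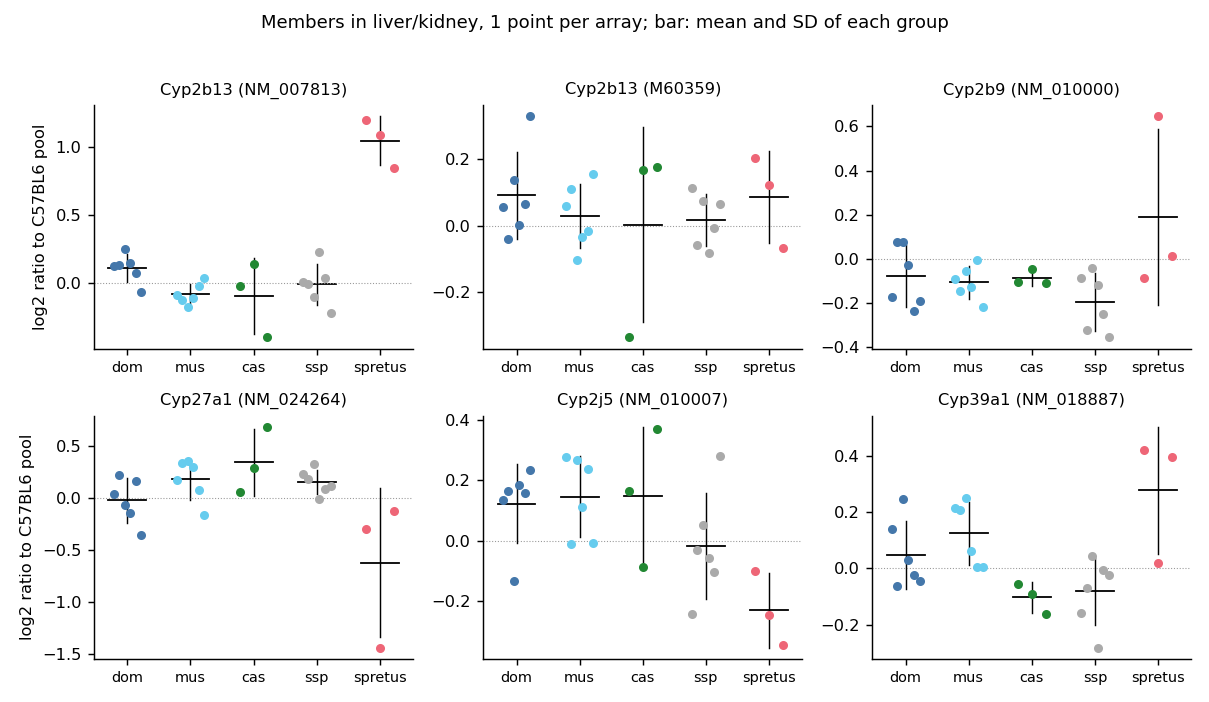
Log2 ratio to the C57BL6 pool (y axis) of 6 P450 probes in liver/kidney for the groups dom, mus, cas, ssp and spretus (x axis); points are single arrays, the horizontal bar is the group mean and the vertical bar 1 SD. All 3 spretus arrays lie above the house mice at Cyp2b13 NM_007813, which the second Cyp2b13 probe does not show, and 1 spretus array sets the low mean of Cyp27a1.

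Of the 6 genes of bile acid and sterol metabolism, 1 was called higher (3.03% of all probes), 1 lower (4.46%) and 4 were not called. Cyp27a1, the mitochondrial sterol hydroxylase of bile acid synthesis, stood at -0.30, -1.44 and -0.12 in spretus 01, 02 and 03. It ranged from -0.36 to 0.22 in dom, -0.16 to 0.36 in mus, -0.01 to 0.33 in ssp and 0.06 to 0.69 in cas. The spretus 02 mouse lay far below all others, and the other two overlapped the lowest dom mice. The difference of -0.79 ± 0.17 (adjusted p = 0.00715) became -0.38 without spretus 02 (adjusted p = 0.142), the only array of set 3. Cyp39a1, an oxysterol hydroxylase of bile acid synthesis, stood at 0.42, 0.02 and 0.39, against -0.28 to 0.25 in the house mice. Spretus 01 and 03 were above all house mice, and the difference was 0.28 ± 0.08 (adjusted p = 0.0398). The call was lost without spretus 01 (adjusted p = 0.194), spretus 03 (0.178), dom 06, dom 10 or mus 05, and under 5 of 10 other settings, with adjusted p of up to 0.374. Cyp7b1, the oxysterol hydroxylase known as male-biased in mouse liver, showed the same animals high at 0.56 and 0.57, with spretus 02 at 0.08, and was not called (0.32 ± 0.11, adjusted p = 0.0625). Cyp7a1, the rate-limiting enzyme of bile acid synthesis, stood at -0.19, 0.14 and -0.08, within the range of the house mice.

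Among 31 probes of families Cyp1 to Cyp3, 1 was called higher (Cyp2b13) and 1 lower. The lower one was Cyp2j5, an epoxygenase of arachidonic acid known as abundant in mouse kidney and liver. Its probe NM_010007 stood at -0.10, -0.24 and -0.35 in the spretus mice, against 0.13 to 0.23 in 5 of the 6 dom mice and -0.13 in dom 05, -0.01 to 0.28 in mus, -0.24 to 0.28 in ssp and -0.09 to 0.37 in cas. The spretus mice were low and overlapped the ssp and dom mice. The difference was -0.33 ± 0.10 (adjusted p = 0.0376), and the second probe, BC021624, differed by -0.07 ± 0.12. Duplicate spots had an r of 0.92 at NM_010007 and 0.23 at BC021624. NM_010007 lost the call without spretus 02 (adjusted p = 0.124) and without spretus 03 (adjusted p = 0.157). Cyp20a1, a P450 with no established substrate, stood at -0.75, -1.53 and -0.16, with spretus 01 and 02 below all house mice and spretus 03 within the house mouse range (-0.67 to 0.08). Its difference of -0.55 ± 0.17 (adjusted p = 0.0474) kept the call in 5 of 24 fits that left out 1 array, and ranged from -0.88 to -0.19 over them. The -0.19 came without spretus 02, the only liver/kidney array of set 3. Cyp27b1, the kidney enzyme that activates vitamin D, stood at 0.37, 1.13 and 0.56 and was just outside the threshold (0.48 ± 0.15), with mus 07 at 1.14 among the house mice.

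No fatty acid hydroxylase was called in this comparison, with 4 of 10 probes positive and a median of -0.04. Their lowest was Cyp4f16 at -0.24 and their highest Cyp4f13 at 0.12. Of the steroid hormone enzymes, Cyp21a1 stood at 0.34, 0.09 and 0.13 in the spretus mice and was not called (0.28 ± 0.11, adjusted p = 0.115). Of the genes known as female-biased in mouse liver, 1 of 9 probes (Cyp2b13) was called and 4 had a negative difference. The 3 male-biased ones were uncalled, with Cyp4a12a at -0.17, Cyp8b1 at -0.20 and Cyp7b1 at 0.32.

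**Figure D2:**
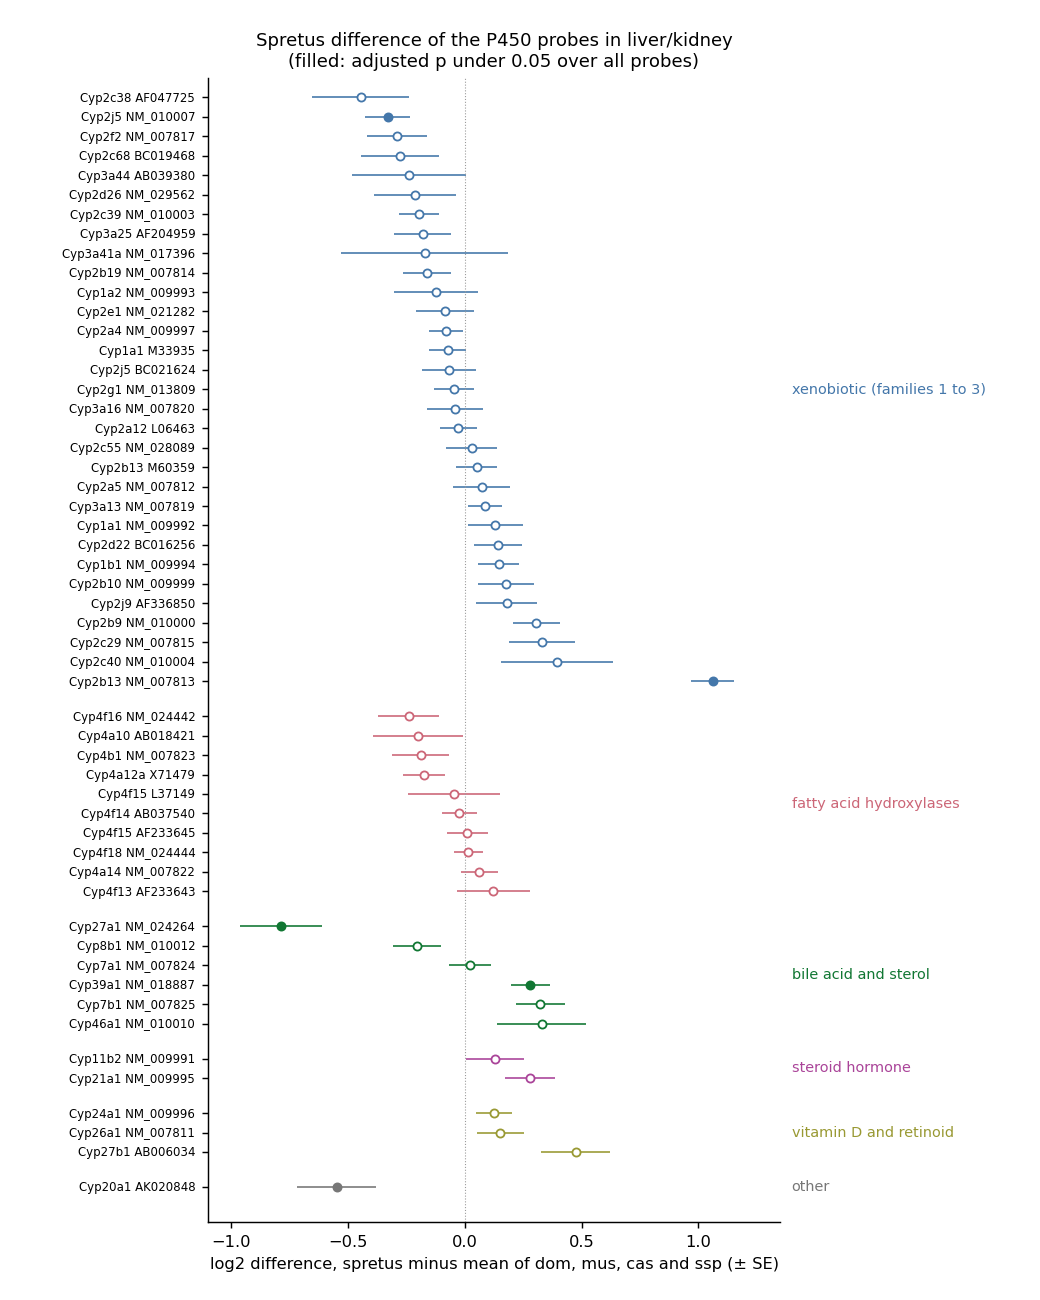
Log2 difference between spretus and the mean of dom, mus, cas and ssp in liver/kidney (x axis, with its standard error) for each of the 53 tested P450 probes (y axis), grouped by role; filled points passed an adjusted p of 0.05 over all probes. Cyp2b13 NM_007813 stands apart at 1.06, and the other differences lie between -0.79 and 0.48.

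The electron donors, haem enzymes and transcription factors that serve P450 genes had 1 of 27 probes higher and 2 lower by the same test. Lower were Dbp, a circadian activator of several Cyp genes (-0.71 ± 0.15, adjusted p = 0.00629), and Cux2, a repressor known as female-specific in mouse liver (-0.37 ± 0.09, adjusted p = 0.0146). Bcl6, a growth hormone-regulated repressor known as male-biased in liver, was higher (0.27 ± 0.07, adjusted p = 0.0260). Of 13 other target genes of CAR, PXR and Ahr, 3 were higher, namely Tiparp (0.57 ± 0.11), Gsta2 (0.73 ± 0.19) and Gstm3 (0.91 ± 0.24), and none was lower. Of 12 target genes of PPAR alpha, Fgf21 was lower (-0.45 ± 0.13) and none was higher. None of 8 probes of other sex-dependent liver genes was called.

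Cell type markers moved in the same comparison. The mean over the 13 hepatocyte probes was -0.33 to 0.01 in the spretus mice and 0.10 to 0.37 in the house mice, and 5 of 12 tested markers were lower in spretus, among them Ttr (-1.22 ± 0.24), Trf (-0.48 ± 0.10) and Fgb (-0.42 ± 0.10). The 17 kidney probes averaged -0.12 to 0.08 in spretus and -0.22 to 0.11 in the house mice, with Umod higher (0.72 ± 0.12) and Slc5a2 lower (-0.40 ± 0.11). The haemoglobin gene Hbb-b2 was higher too (0.74 ± 0.22). The part of these markers in the P450 differences was not tested.

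Between the sub-species mus and dom, no P450 probe passed in liver/kidney (limma), where 0.591% of all probes did. At an unadjusted p under 0.05 there were 8 of 53, where 6.32% of all probes were. The smallest p were at Cyp2d26, of the drug-oxidising Cyp2d subfamily, and Cyp3a25, of the Cyp3a subfamily, and at both the 6 mus and 6 dom arrays did not overlap, which held for 1.42% of all probes.

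Cyp2d26 ran from -0.56 to -0.32 in dom, with a median of -0.36, and from 0.14 to 0.42 in mus, with a median of 0.28. The cas mice stood at 0.34, 0.22 and 0.60. Of the ssp mice, 5 lay between 0.15 and 0.69 and ssp 02 lay at -0.77, while the spretus mice stood at -0.21, -0.45 and 0.35. All 6 dom mice were below the pool and every mus and cas mouse above it, and ssp and spretus held animals on both sides. The mus minus dom difference was 0.67 ± 0.16 (1.60-fold, adjusted p = 0.0642). It was called when the spread came from the 12 dom and mus arrays alone (standard error 0.06, adjusted p = 6.16e-05), which leaves out the wide ssp and spretus groups, and under quantile normalisation (adjusted p = 0.0148). Brain and testis did not show such a gap, with mus mice at -0.10 to 0.43 and dom mice at -0.33 to 0.60 in testis.

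Cyp3a25 ran from 0.22 to 0.84 in dom (median 0.37) and from -0.12 to 0.13 in mus (median 0.06). Every dom mouse was above every mus mouse, cas and ssp covered both ranges, and the spretus mice at 0.08, -0.03 and -0.07 lay in the mus range. The difference was -0.43 ± 0.11 (adjusted p = 0.108), and -0.43 with an adjusted p of 0.0459 on the spread of the 12 dom and mus arrays. Cyp2a4, which hydroxylates testosterone and is known as female-biased, was 0.07 to 0.45 in mus and -0.18 to 0.11 in dom (0.18 ± 0.07, adjusted p = 0.538). Cyp2b19, a skin arachidonate epoxygenase, was -0.32 to -0.03 in mus and -0.07 to 0.63 in dom, where dom 05 alone lay above 0.10 (-0.25 ± 0.10, adjusted p = 0.571).

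**Figure D3:**
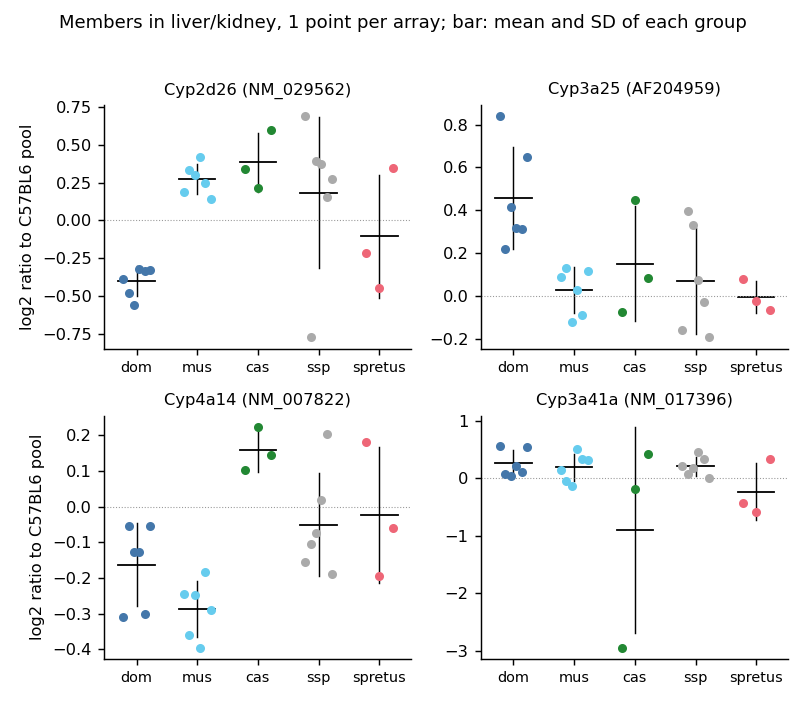
Log2 ratio to the C57BL6 pool (y axis) of Cyp2d26, Cyp3a25, Cyp4a14 and Cyp3a41a in liver/kidney by group (x axis); points are single arrays, bars the group mean and 1 SD. Dom and mus do not overlap at Cyp2d26 and Cyp3a25, cas lies above dom and mus at Cyp4a14, and the low cas mean of Cyp3a41a comes from 1 array at -2.95.

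In M. m. castaneus liver/kidney, 1 of 53 P450 probes was called against dom and mus, where 1.11% of all probes were. This was Cyp4a14, an omega-hydroxylase of fatty acids known as a target of PPAR alpha, at 0.10, 0.22 and 0.14 in the 3 cas mice, against -0.31 to -0.05 in dom and -0.40 to -0.18 in mus. All cas mice were above the pool and all dom and mus mice below it, with no overlap, as at 2.75% of all probes. The difference was 0.38 ± 0.08 (adjusted p = 0.0256). It was 0.33 ± 0.15 (adjusted p = 1.00) with the array set as a random block, and the call was lost without cas 02 (adjusted p = 0.0853) or cas 03 (adjusted p = 0.0761). Its cluster neighbour and fellow PPAR alpha target Cyp4a10 ranged from 0.22 to 0.35 in cas, inside the dom range of -0.09 to 1.18. None of the 12 other PPAR alpha targets was called.

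The other probes with the smallest p were uncalled in cas. Cyp4f13 of family Cyp4 stood at 0.48, 0.35 and 0.88, above all dom and mus mice but mus 08 at 0.65 (0.50 ± 0.16, adjusted p = 0.140). Cyp2d22, by its probe BC016256, stood at 0.17, 0.36 and 0.69, against -0.16 to 0.24 in dom and mus (0.33 ± 0.11, adjusted p = 0.140). Cyp3a41a, a Cyp3a gene known as female-specific in mouse liver, stood at -2.95, -0.18 and 0.42, so that its difference of -1.12 ± 0.37 (adjusted p = 0.147) came from cas 01 and was -0.10 without it. Beside these, Umod of the kidney list (0.56 ± 0.13), Serpina1a of the hepatocyte list (0.74 ± 0.18) and the haemoglobin gene Hba-a1 (1.01 ± 0.19) were called higher in cas, and their part was not tested.

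No P450 probe was called in liver/kidney of ssp against dom, mus and cas (limma), where 0.0436% of all probes were, and 5 of 53 had an unadjusted p under 0.05 (10.6% of all probes). Cyp2a5, the coumarin hydroxylase, ran from -0.83 to -0.0044 in ssp with a median of -0.19, against -0.27 to 0.25 in the other house mice, and only ssp 02 and ssp 04 lay below them (-0.33 ± 0.10, adjusted p = 0.212). Cyp8b1, the sterol hydroxylase that directs synthesis to cholic acid, ran from 0.31 to 0.61 in ssp, within reach of the highest dom mouse at 0.44 (0.26 ± 0.08, adjusted p = 0.235). Cyp2g1, known from the olfactory mucosa, was 0.19 ± 0.07 and Cyp2d22 0.20 ± 0.08 higher, uncalled. Within array set 1, against dom and mus alone, Cyp2d22 passed (adjusted p = 0.0391).

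Against the C57BL6 pool, 23 of 53 P450 probes were called over the 21 house mice in liver/kidney, where 31.4% of all probes were called. Of these, 13 were higher (17.4% of all probes) and 10 lower (14%). This test sets the mean of the 4 groups against 0, so it leaves out the spread of the pool itself and any dye effect shared by all arrays. Of the 6 tested Cyp2c probes, 3 were higher, and Cyp2c29 (0.11 ± 0.05), Cyp2c38 (-0.07 ± 0.08) and Cyp2c40 (-0.17 ± 0.09) were not called. Cyp2c55 ran from -0.12 to 0.59 over the house mice and was positive in 19 of 21 (0.27 ± 0.04, adjusted p = 1.65e-05). Cyp2c39 (0.18 ± 0.03) was positive in 19 and Cyp2c68 (0.31 ± 0.06) in 20 of 21. Cyp2d22 (0.24 ± 0.04), Cyp3a44 (0.45 ± 0.09) and Cyp8b1 (0.22 ± 0.04) were higher as well. Of the 31 probes of families Cyp1 to Cyp3, 8 were higher and 6 lower. The lower ones were Cyp2j9 (-0.21 ± 0.05), Cyp2b10 (-0.17 ± 0.05), Cyp1b1 (-0.14 ± 0.03), Cyp2j5 BC021624 (-0.14 ± 0.04), Cyp1a1 M33935 (-0.12 ± 0.03) and Cyp2b9 (-0.12 ± 0.04), while the other Cyp2j5 probe was higher (0.10 ± 0.04). Of 9 female-biased probes, 1 was higher (Cyp3a44) and 2 lower (Cyp2b10 and Cyp2b9).

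Fatty acid hydroxylases were split, with 3 of 10 probes higher and 2 lower. Cyp4a10 (0.31 ± 0.07), Cyp4f13 (0.26 ± 0.06) and Cyp4f16 (0.20 ± 0.05) were higher. Cyp4b1, known for oxidising short fatty acids and toxins in lung and kidney, was lower (-0.20 ± 0.05), and so was Cyp4a14 (-0.09 ± 0.03). Of the sterol enzymes, Cyp46a1, the cholesterol hydroxylase known from brain, was below the pool in 19 of 21 house mice (-0.34 ± 0.07, adjusted p = 0.000633). Cyp27b1 was above it in 19 of 21 (0.21 ± 0.05), and Cyp20a1 below it in 19 of 21 (-0.26 ± 0.06). Hepatocyte markers moved too, with 10 of 12 higher than the pool and none lower. Called kidney markers went both ways. Aqp2 (-0.57 ± 0.05), Kap (-0.73 ± 0.15), Slc34a1 (-0.12 ± 0.04) and Nphs1 (-0.07 ± 0.03) were lower. Slc5a2 (0.26 ± 0.04), Slc22a8 (0.14 ± 0.04), Kl (0.11 ± 0.03) and Umod (0.14 ± 0.04) were higher. The part of these markers in the P450 ratios was not tested. With the array set as a random block no P450 probe was called, and 27 were within set 1.

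**Figure D4:**
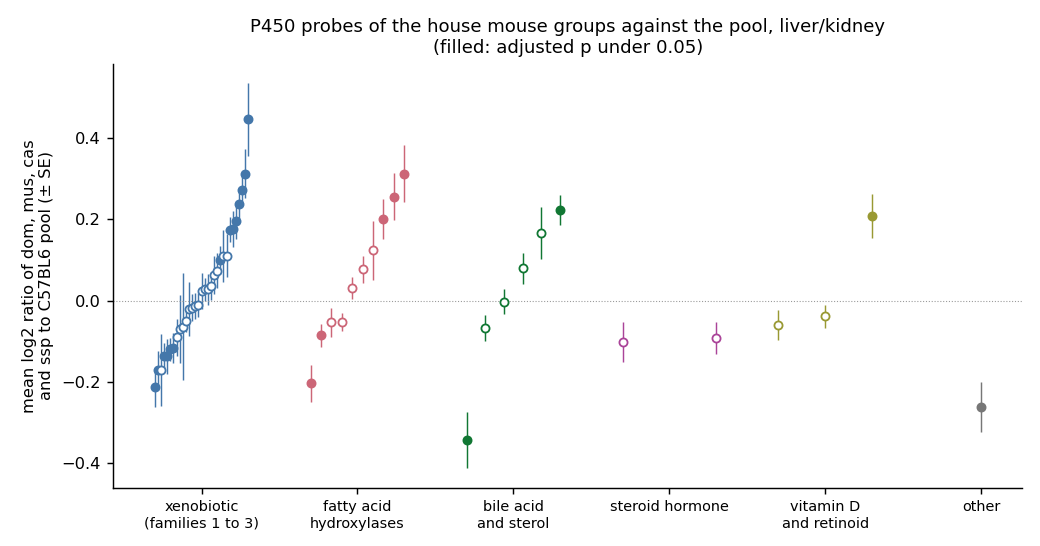
Mean log2 ratio of the 4 house mouse groups to the C57BL6 pool in liver/kidney (y axis, with its standard error) for the 53 tested P450 probes, ordered within each role (x axis); filled points passed an adjusted p of 0.05 over all probes. Called probes lie on both sides of 0, from -0.34 (Cyp46a1) to 0.45 (Cyp3a44).

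Animals of 1 group varied more at P450 probes than at most probes of liver/kidney. The median SD within groups was 0.20 for the 53 members and 0.16 over all probes, and 10 members (18.9%) were among the most variable 10% of probes. Cyp3a41a had the widest spread (SD 0.64, the 99.5th percentile of all probes). Cyp3a44, a female-specific relative, followed with an SD of 0.43. It ranged from -0.06 to 0.82 in dom, -0.25 to 1.26 in mus, 0.39 to 1.28 in cas and 0.12 to 0.90 in ssp. Cyp2c40, a female-biased gene of the Cyp2c subfamily, had an SD of 0.42 and ranged from -1.11 to -0.15 in dom and from -0.74 to 0.94 in spretus. Cyp2c38 (0.36), Cyp4f15 L37149 (0.34), Cyp4a10 (0.33), Cyp46a1 (0.33), Cyp1a2 (0.31), Cyp2d26 (0.31) and Cyp27a1 (0.30) made up the rest.

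In brain 50 P450 probes were tested, and 1 was called between mus and dom, where 0.223% of all probes were. Cyp2j5 NM_010007 stood at 0.16 to 0.51 in mus (median 0.31) and -0.32 to 0.00046 in dom (median -0.07). All 6 mus mice were above all 6 dom mice, as at 1.39% of probes in either direction, ssp lay between -0.07 and 0.16, and cas stood at 0.24, 0.14 and -0.19. The difference was 0.45 ± 0.08 (adjusted p = 0.0264), and it held without mus 08, whose labels disagree. It was 0.44 ± 0.09 within array set 1 (adjusted p = 0.0837). The call was lost without dom 10, dom 13, mus 04 or mus 07, with adjusted p of 0.0653 to 0.106. Without mus 05, 2 probes were called, the second being Cyp2d22 BC016256 (-0.37 ± 0.11 over all arrays, adjusted p = 0.140). The second Cyp2j5 probe, BC021624, ran from -0.36 to 2.13 in mus, where mus 05 alone reached 2.13, and from -0.34 to 0.14 in dom. In liver/kidney Cyp2j5 NM_010007 was -0.01 to 0.28 in mus and -0.13 to 0.23 in dom, with no such gap.

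M. spretus brain had 1 called P450 probe, where 3.95% of all probes were called. Cyp4f15, of the Cyp4f subfamily that hydroxylates leukotrienes and fatty acids, stood at 0.31, 0.39 and 0.42 by its probe L37149. The house mice reached from -0.37 in ssp to 0.24, so all 3 spretus mice lay above them, as at 2.25% of all probes. The difference was 0.46 ± 0.11 (adjusted p = 0.0173), and 0.47 ± 0.13 within array set 2 (adjusted p = 0.115). The call was lost when any of the 3 spretus arrays was left out (adjusted p of 0.0576 to 0.0963), while 2 probes were called without ssp 03 or ssp 04 and 3 without cas 03. The second probe, AF233645, stood at -0.23, -0.0027 and -0.08. Cyp27a1, the sterol hydroxylase, was low in brain too at -0.26, -0.47 and -0.22 and just missed the threshold (-0.39 ± 0.11, adjusted p = 0.0544). The only lower mouse was cas 03 at -0.54, the only brain array of set 3.

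No P450 probe was called for cas in brain (limma; 6 of 50 at an unadjusted p under 0.05, against 12% of all probes), where 0.0097% of all probes were. None was called for ssp (11 of 50 unadjusted, against 15.7%), where 0.097% were. In cas, Cyp2c29 stood at -0.60, 0.13 and -0.37 (-0.36 ± 0.12, adjusted p = 0.257) and Cyp4a12a at 0.05, -0.13 and -0.86 (-0.35 ± 0.12, adjusted p = 0.286). Without cas 02 the first was called (adjusted p = 0.0133), and without cas 01 the second (adjusted p = 0.0424). The low cas mean of Cyp4a12a came mainly from cas 03 at -0.86. That array was the only brain array of set 3, and its duplicate spots agreed least of all arrays (r = 0.275). Cyp1a1, the Ahr target that oxidises aromatic hydrocarbons, was low in all 6 ssp mice by its probe M33935, from -1.46 to -0.11 with ssp 05 lowest (-0.49 ± 0.12, adjusted p = 0.0841, called without cas 02 or without ssp 01). Its probe NM_009992 ran from -0.52 to 0.81 in the same mice. Duplicate spots in brain had an r of 0.91 at M33935 and 0.21 at NM_009992. Cyp8b1 was 0.28 ± 0.08 higher in ssp, uncalled (adjusted p = 0.147). Against the pool 5 of 50 were called in brain, where 8.95% of all probes were. These were Cyp2b19 (-0.18 ± 0.04), Cyp4f16 (-0.17 ± 0.04), Cyp1a1 M33935 (-0.20 ± 0.05), Cyp2c68 (0.13 ± 0.03) and Cyp4f13 (0.23 ± 0.07), and without cas 02 only 2 of them passed.

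In testis 54 P450 probes were tested, and M. spretus had 4 called, where 9.42% of all probes were called. Cyp20a1 was lower at -0.59, -0.45 and -0.47, against -0.15 to 0.23 in the 21 house mice. All 3 spretus mice were below all of them, as at 3.64% of probes in either direction. The difference was -0.47 ± 0.06 (1.38-fold, adjusted p = 2.32e-05), and -0.48 ± 0.07 within array set 2 (adjusted p = 0.0119). Every alternative and every fit without 1 array kept this call. The brain showed spretus mice at -0.44, -0.36 and -0.26 for Cyp20a1, uncalled. The gene has no second probe here, and the match of its probe to M. spretus was not tested.

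The other 3 calls in testis were fatty acid hydroxylases. Cyp4f15 L37149 stood at 0.38, 0.41 and 0.38, above the highest house mouse at 0.34 in cas (0.28 ± 0.08, adjusted p = 0.0382). Its second probe stood at -0.01, 0.34 and 0.19. Duplicate spots of that second probe had an r of -0.004 in testis, against 0.67 for L37149. Cyp4f16 was -0.42, -0.45 and -0.31, with mus 07 at -0.33 among the house mice (-0.30 ± 0.09, adjusted p = 0.0274). Cyp4a12a, a male-biased hydroxylase of arachidonic acid, was -0.20, -0.39 and -0.33, and 2 ssp mice at -0.31 and -0.40 were as low (-0.26 ± 0.07, adjusted p = 0.0203). Leaving out spretus 02 ended the calls of all 3, with adjusted p of 0.158 to 0.161, leaving out spretus 01 those of Cyp4f15 (0.0826) and Cyp4f16 (0.0809), and leaving out spretus 03 those of Cyp4f15 (0.0925) and Cyp4a12a (0.0747).

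The sub-species comparisons of testis had no P450 call by limma, with 6, 4 and 4 of 54 probes at an unadjusted p under 0.05 for mus minus dom, cas and ssp, against 6.59%, 6.25% and 4.86% of all probes. Over all probes 0% passed for mus minus dom and for ssp, and 0.0193% for cas. Cyp4f13 (-0.43 ± 0.15) and Cyp4a14 (-0.26 ± 0.10) were lowest in p for mus minus dom. In cas these were Cyp46a1 (0.40 ± 0.13) and the vitamin D breakdown enzyme Cyp24a1 (0.49 ± 0.17), and in ssp Cyp4a12a (-0.18 ± 0.06) and Cyp4b1 (-0.16 ± 0.06). Against the pool 8 of 54 were called, where 13.1% of all probes were. Cyp2d26 was above the pool in 19 of 21 house mice (0.28 ± 0.05, adjusted p = 0.000314). The others were Cyp27b1, Cyp4f15, Cyp24a1, Cyp2g1 and Cyp4f13, between 0.09 and 0.19, and Cyp2j5 (-0.23 ± 0.06) and Cyp27a1 (-0.17 ± 0.05). Without cas 01, 2 were called.

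With the animal, taken from the group and number of the title, as a random block, the spretus difference was compared between tissues. Between liver/kidney and brain it differed at 1 P450 probe, where 1.9% of 20589 probes differed, and between liver/kidney and testis at 2, where 5.98% did. Cyp2b13 NM_007813 differed in both. Its spretus difference of 1.06 in liver/kidney stood against 0.25 in brain, where the spretus mice were at -0.06, 0.44 and 0.33, and 0.21 in testis, where they were at 0.02, 0.20 and 0.25. The gap was 0.81 ± 0.17 to brain (adjusted p = 0.00422) and 0.85 ± 0.17 to testis (adjusted p = 0.000472). Without spretus 01 of the brain, the first of these had an adjusted p of 0.0508. The second Cyp2b13 probe, M60359, differed in neither by the same fit. Its gap was -0.03 ± 0.14 to brain (adjusted p = 0.962) and 0.04 ± 0.14 to testis (adjusted p = 0.947). Duplicate spots of M60359 had an r of 0.27 in liver/kidney, 0.76 in brain and 0.15 in testis. Those of NM_007813 had 0.84, 0.34 and 0.09. Cyp27a1 differed between liver/kidney and testis (-0.72 ± 0.21, adjusted p = 0.0277), and this was lost without spretus 02 of liver/kidney (adjusted p = 0.500) or spretus 01 of testis (adjusted p = 0.0875).

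**Figure D5:**
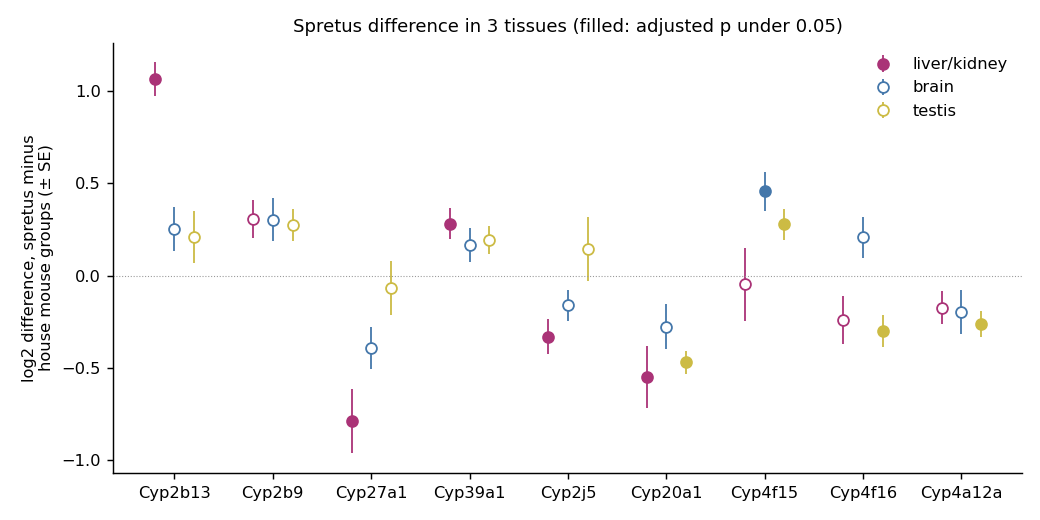
Log2 difference between spretus and the mean of dom, mus, cas and ssp (y axis, with its standard error) for 9 P450 genes (x axis) in liver/kidney, brain and testis; filled points passed an adjusted p of 0.05 over all probes of the tissue. Cyp2b13, by its probe NM_007813, is high in liver/kidney at 1.06 and lower in the other tissues, while Cyp20a1 is negative and Cyp39a1 positive in all 3.

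Cyp2j5 NM_010007 was called in 4 tests, and Cyp20a1, Cyp4f13, Cyp4f15 and Cyp4f16 in 3 each. Likeness is given for the first 3 of these in that order. Only probes with 1 gene symbol and a value on every array were ranked. Over the 24 liver/kidney arrays, Cyp2j5 was most like Stmn1 (r = 0.89), 4833413N01Rik (0.87) and Dusp22 (0.87) among these. Cyp20a1 was most like Wnt7a (0.83), Mxra7 (0.83) and 4933409F18Rik (0.82), and Cyp4f13 most like Hjv (0.77), Mirt1 (0.77) and Msto1 (0.76). These values describe likeness over arrays that share groups and array sets.

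Probes of 1 gene often differed. For the 5 genes with 2 probes (Cyp1a1, Cyp2b13, Cyp2d22, Cyp2j5 and Cyp4f15), r between the probes ran from -0.52 to 0.41 over the arrays of a tissue. In liver/kidney 1 probe of each pair also followed its own duplicate spot poorly. The duplicate r was 0.68 and -0.13 for Cyp1a1, 0.84 and 0.27 for Cyp2b13, and 0.93 and 0.27 for Cyp2d22. For Cyp2j5 it was 0.92 and 0.23, and for Cyp4f15 0.48 and -0.27. Noise of a probe and a true difference between probes cannot be told apart here. The probes of Cyp2b10, Cyp2d11, Cyp11b2 and Cyp2d22 (NM_019823) lacked values on some liver/kidney arrays and followed each other over the arrays with r from 0.22 to 0.65, although Cyp2d22 NM_019823 had an r of -0.02 with the other Cyp2d22 probe. Cyp2c38 and Cyp4f15 AF233645 lacked values too, and their r with these probes ran from -0.39 to 0.0046. Not tested for want of 2 values in each group were Cyp2d11 and Cyp2d22 NM_019823 in liver/kidney, these with Cyp2b10, Cyp2c38 and Cyp11b2 in brain, and Cyp2d22 NM_019823 in testis.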

How the data were processed

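The deposited table holds, for each array, the authors' log ratio per spot, taken here as log2 because the base is not stated. How the authors corrected background and normalised is not given in the sources used here. In each tissue the array median was subtracted, 22320 spot pairs were averaged and 1488 single spots were dropped. limma 3.58.1 (R 4.3.3) fitted the 5 groups of a tissue together, over probes with at least 2 values in each group, with Benjamini-Hochberg adjustment over all probes and a threshold of 0.05. The spretus difference was compared between tissues in 1 fit with the animal as a random block (correlation 0.020). Arrays of 1 group with the same number in their titles were taken as 1 animal. Channel 2 of each array holds the single mouse and channel 1 the pool, and no dye swap is named. The labels call the animals individual males and say nothing of litters, so p-values measure the spread between these mice. Named were the called members, up to 8 per comparison, the 4 members with the smallest p per liver/kidney comparison and the 2 in brain and testis, and up to 3 called genes of every other list. The members and gene lists were chosen with earlier results of these data known. Gene symbols came from the platform annotation, and all 55 probes matched RefSeq by gene identifier. The calculation was checked on simulated data: in liver/kidney 76% of 100 probes changed by 0.5 were recovered for mus against dom and 69% for spretus. The simulated noise was normal, independent between arrays and without an array set effect. It therefore says nothing on calls that set and descent share, and false calls are not given here. Same-numbered animals of different groups had correlations of -0.121 to 0.139 in liver/kidney, -0.079 to 0.103 in brain and -0.186 to 0.327 in testis, where 8 of 27 pairs were above 0.1. The median r of same-numbered pairs was -0.0008 in liver/kidney, -0.0070 in brain and -0.0402 in testis. Other pairs of different groups had medians of 0.0016, -0.0009 and -0.0038. Same-numbered animals were thus not more alike in the median, and the numbers were not taken to pair them. Alternatives were no centring, quantile normalisation, array weights, robust eBayes, both duplicate spots required, complete probes only, means per gene, the replicate block, the array set as a block or by itself, and leaving out each array. Plots were drawn with matplotlib 3.10.9 and tables built with pandas 2.3.3 under Python 3.11.15.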

Additional observations from a re-analysis of the deposited data

Results flagged for a closer look

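In 14 of 150 groups of 6 arrays tested (9.33%) the highest or lowest array of a P450 probe stood apart by Dixon's test at 95%. Only named P450 probes were tested, and the share over all probes was not computed. The rate of about 1 in 20 set by the test holds for normally distributed values. No excess at P450 genes can therefore be read from this share. In liver/kidney, Cyp2b19 was 0.63 in dom 05 against -0.07 to 0.10 in the other dom mice, and 0.30 in ssp 05 against -0.08 to 0.03. Cyp4f13 was 0.65 in mus 08 against -0.12 to 0.05. Cyp2d26 was -0.77 in ssp 02 against 0.15 to 0.69. Cyp2j5 NM_010007 was -0.13 in dom 05 against 0.13 to 0.23. Cyp46a1 was -0.81 in dom 03 against -0.52 to -0.35, and 0.12 in ssp 01 against -0.49 to -0.27. Cyp2a4 was 0.45 in mus 07 against 0.07 to 0.20. In brain, Cyp4f16 was -0.69 in mus 08 against -0.37 to -0.21, and Cyp1a1 M33935 was -1.46 in ssp 05 against -0.56 to -0.11. In testis, Cyp24a1 was 0.81 in mus 07 against -0.07 to 0.20, Cyp27a1 was -0.58 in dom 01 against -0.15 to 0.06, Cyp4b1 was 0.23 in dom 13 against -0.09 to 0.00, and Cyp27b1 was 0.65 in ssp 01 against -0.08 to 0.13.

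The spretus difference itself differed between tissues at 2 P450 probes, while the second Cyp2b13 probe, M60359, did not differ. Cyp2b13 NM_007813 was 0.81 further up in liver/kidney than in brain and 0.85 further up than in testis, and Cyp27a1 differed by -0.72 between liver/kidney and testis (limma interaction, adjusted p = 0.00422, 0.000472 and 0.0277).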

How the results depend on the processing

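Counts of called P450 probes moved as follows. In liver/kidney, mus minus dom (0) became 2 with quantile normalisation, 1 with array weights, 2 with dom and mus arrays only, 1 with the array set as a random block and 2 within set 1. Cas (1) became 2 with array weights, 2 with means per gene and 0 with the array set as a random block. Ssp (0) became 1 within set 1. Spretus (5) became 2 with quantile normalisation, 3 with array weights, 1 with the random block and 0 within set 2. The pool comparison (23) became 0 with the random block and 0 within set 2. In brain, mus minus dom (1) became 2 with quantile normalisation, 2 with array weights, 0 with means per gene and 0 within set 1. Spretus (1) became 2 without centring, 5 with quantile normalisation, 13 with array weights, 0 with complete probes only, 3 with the array set as a fixed term, 0 with means per gene and 0 within set 2. The pool comparison (5) became 0 with the random block, 8 with the fixed term and 0 within set 2. In testis, spretus (4) became 1 with quantile normalisation, 2 with the fixed term and 2 within set 2. The pool comparison (8) became 1 with the random block, 5 within set 1 and 0 within set 2. The cause of these shifts was not tested, and within a set fewer arrays are compared.

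With the replicate number as a block, cas had 0 and spretus 3 calls in liver/kidney, and mus minus dom and spretus had 0 each in brain. Cyp2b13 kept its call under the replicate block (1.06, adjusted p = 0.000170), and Cyp27a1 did too (-0.84, adjusted p = 0.0202). The numbers were not taken to pair the animals.

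Leaving out 1 array at a time gave, in liver/kidney, 0 to 0 calls for mus minus dom, 0 to 1 for cas, 0 to 0 for ssp, 3 to 8 for spretus and 19 to 25 for the pool. Brain gave 0 to 2, 0 to 1, 0 to 1, 0 to 3 and 2 to 7 in the same order, and testis 0, 0, 0, 1 to 6 and 2 to 8. The tissue difference gave 0 to 2 calls against brain and 1 to 3 against testis. A change of sign was counted only where the main fit or the other setting was called. Over 63 named results there were 3 such changes, all against the pool. These were Cyp27b1 in liver/kidney within set 2 (-0.012), and in testis Cyp24a1 within set 1 (-0.0030) and Cyp4f13 within set 2 (-0.034). Of the other values 535 kept their side of the threshold, 103 lost the call and 17 gained it. The 535 may include uncalled values that changed sign. A fixed array set term could not be fitted in liver/kidney. Requiring both duplicate spots ended the calls of Cyp39a1 for spretus in liver/kidney (adjusted p = 0.0559) and of Cyp24a1 (0.0573) and Cyp4f15 (0.0649) against the pool in testis, and robust eBayes that of Cyp4f13 there (0.0501). In simulated data without an array set effect, differences of 0.5 on the log2 scale were recovered at 73 to 76% for mus minus dom. For spretus this was 69 to 72% over the 3 tissues.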
